A study of Mus musculus with 4 samples.

Results

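The STAT and JAK families were described by their transcript levels in cultured neural progenitors of CTL and *Stat3* cKO mouse embryos. The members were 9 genes chosen by name, and an entry whose symbol equals the member's was found for 8 of them among 21091 entries: *Stat2*, *Stat3*, *Stat5a*, *Stat5b*, *Stat6*, *Jak1*, *Jak2* and *Tyk2*. *Jak3* had no entry of its own. It was joined with its overlapping neighbour *Insl3*, and the joined entry is given separately because reads of the 2 genes cannot be told apart in it. Progenitors of C57BL/6 mice came from brains dissected at embryonic day 11 (E11) or 14 (E14), and RNA was taken after 3 days of suspension culture with EGF and FGF. At each stage there was 1 control library (CTL) and 1 library of progenitors from embryos with Nestin-Cre and floxed *Stat3* (*Stat3* cKO), giving 4 libraries in all. This cross is described as reaching the knockout in neural progenitors by E14, so how far *Stat3* was recombined in the E11 *Stat3* cKO library is not known. The sample labels and the sequencing methods call the controls wild type. The animal methods describe control embryos with Nestin-Cre and 1 floxed *Stat3* allele, and whether the sequenced CTL cells carried a deleted allele is not known. Cre was driven by a Nestin promoter and enhancer of the rat, which are active in neural progenitors, and cells that never expressed it would keep the floxed gene intact. Nothing in the labels says how many embryos went into a library.

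Cytokine receptors without a kinase domain of their own hold JAK kinases on their inner side. When a ligand joins 2 receptor chains, the JAKs phosphorylate each other and the receptor, STAT proteins dock there through their SH2 domain, are phosphorylated, pair up and enter the nucleus to bind DNA. In neural progenitors the gp130 receptors, their JAKs and STAT3 are known for driving the astrocyte gene *Gfap*. SOCS proteins made in response shut the pathway down.

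The values are FPKM (fragments per kilobase of transcript, relative to the mapped fragments of the library), which correct for length and so allow genes to be compared. Each group held 1 library, so no difference could be set against a spread between replicates, no test was made and no p-value is given. A ratio of at least 2 in either direction is used as a description, and beside it stands the share of all genes averaging 1 FPKM or more that reached it. From the smallest values in each file, 1 fragment on a transcript of 1 kb was estimated to be worth from 0.0195 to 0.0259 FPKM in the 4 libraries. By that estimate the members rested on as few as about 32 fragments (*Stat5a* in E14 CTL) and as many as about 7590 (*Jak2* in E14 *Stat3* cKO). Of the 8 members, 7 had a mean of at least 1 FPKM, and *Stat5a* did not. All 8 progenitor and radial glia markers were found, with a summed level of 1518 to 8113 FPKM. Mesenchymal markers were also present at E11: the 7 of them summed to 1326 FPKM in CTL and 1171 in *Stat3* cKO, against 15.9 and 10.4 at E14. The Y-linked gene *Ddx3y* was at 25.1 FPKM in E14 *Stat3* cKO and at 0.0569 in E14 CTL, and at 0 in both E11 libraries, so that sex of the embryos cannot be told apart from genotype at E14, nor from stage in *Stat3* cKO. No member lies on the X or Y chromosome.

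**Figure D1:**
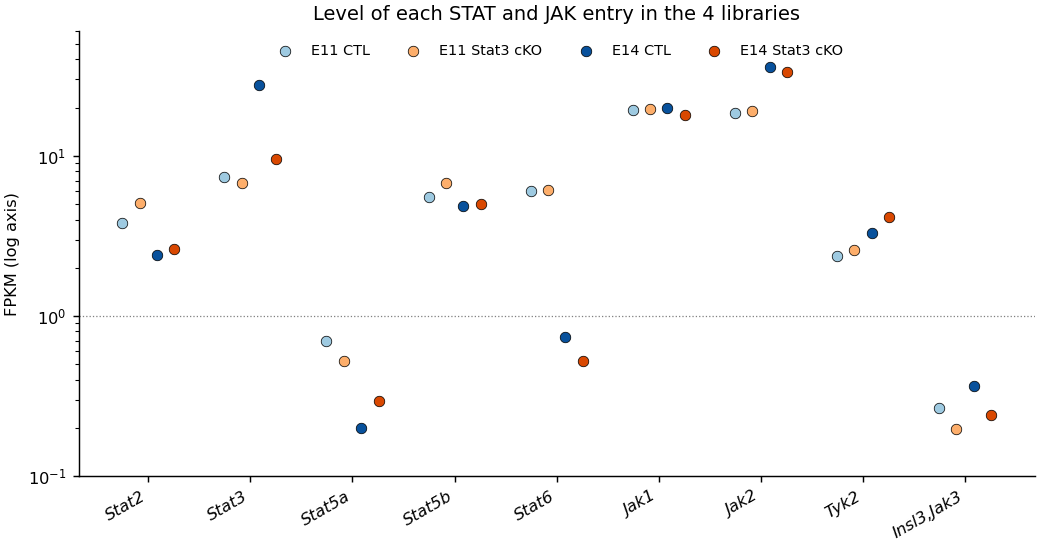
FPKM on a log axis for the 8 members and for the joined entry of Insl3 and Jak3, with 1 point per library and a dotted line at 1 FPKM. Stat3 stands apart in E14 CTL (27.6 FPKM against 6.74 to 9.55 in the other libraries), Stat6 is low in both E14 libraries, and Jak1 is level in all 4.

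*Stat3* is the targeted gene, and its transcript was read first. The floxed allele loses exons 18 to 20, which per the study's methods hold the SH2 domain. In the coding transcript of GENCODE M21 whose span is closest to the listed locus, these exons lie on the minus strand of GRCm38. The study's methods give no coordinates, and its exon numbers were taken to be those of this transcript. On that reading the sequences shown are the part of the messenger RNA that the deletion takes out:

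exon 18, chr11:100894164-100894216: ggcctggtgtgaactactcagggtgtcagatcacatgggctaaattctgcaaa
exon 19, chr11:100893891-100893985: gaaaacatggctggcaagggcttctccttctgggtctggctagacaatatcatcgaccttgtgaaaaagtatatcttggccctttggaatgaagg
exon 20, chr11:100893665-100893804: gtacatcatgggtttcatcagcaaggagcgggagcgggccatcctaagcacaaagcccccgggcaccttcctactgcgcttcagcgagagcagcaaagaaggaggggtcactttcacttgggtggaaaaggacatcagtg

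The 3 exons are 53, 95 and 140 bases long, and all 4 coding transcripts of *Stat3* in the annotation share them. Together they make 288 bases or 96 codons, so their loss leaves the reading frame unbroken. They are 6.38% of the 4516 bases of the transcript. FPKM was computed over the whole transcript, and a deleted transcript would still yield fragments from the remaining 0.936 of its length. The value therefore measures how much *Stat3* RNA of any form was present, and it does not count intact transcripts alone.

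The entry of *Stat3* spans 100748123 to 100800825 of chromosome 11, and its level was 7.41 FPKM in CTL against 6.74 in *Stat3* cKO at E11, and 27.6 against 9.55 at E14. Only E14 CTL was high, and the other libraries lay within 3 FPKM of each other. At E14, *Stat3* in *Stat3* cKO was 0.346 times its level in CTL, a log2 ratio of -1.53 with an estimated counting error of 0.038. Of 12430 genes with a ratio, 59 had a lower one. Among the 5056 genes whose mean lay within 2-fold of that of *Stat3*, 15 did, and the middle 95% of them ran from -0.87 to 0.74. At E11 the ratio was 0.911, a log2 ratio of -0.14 that lay inside the corresponding range of -0.52 to 0.503. The log2 ratio at E14 minus that at E11 was -1.40, and 134 of 12419 genes had a lower difference. Between stages, *Stat3* was 3.73-fold higher at E14 in CTL and 1.42-fold higher in *Stat3* cKO. The summed level of 6 neuron markers was 998 FPKM in E14 CTL against 852 in E14 *Stat3* cKO, and the mesenchymal and sex-linked values given above differed too. Their part in the *Stat3* values was not tested. Whether this difference exceeds the variation between cultures cannot be judged from 1 library per group.

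Among the 7 members with a mean of at least 1 FPKM, *Stat3* was the one that differed at least 2-fold between genotypes at E14, and it was lower. Over all genes, 1.69% were at least 2-fold lower and 1.85% at least 2-fold higher in that comparison. At E11 none of the 7 reached 2-fold, where 1.12% of all genes were lower and 0.209% higher by that margin. The median log2 ratio of the 7 members was -0.101 at E14 and 0.042 at E11, and that of all genes was -0.079 and 0.059. With *Stat3* set aside, the other 6 members lay within the middle 95% of genes of similar level in both genotype comparisons.

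**Figure D2:**
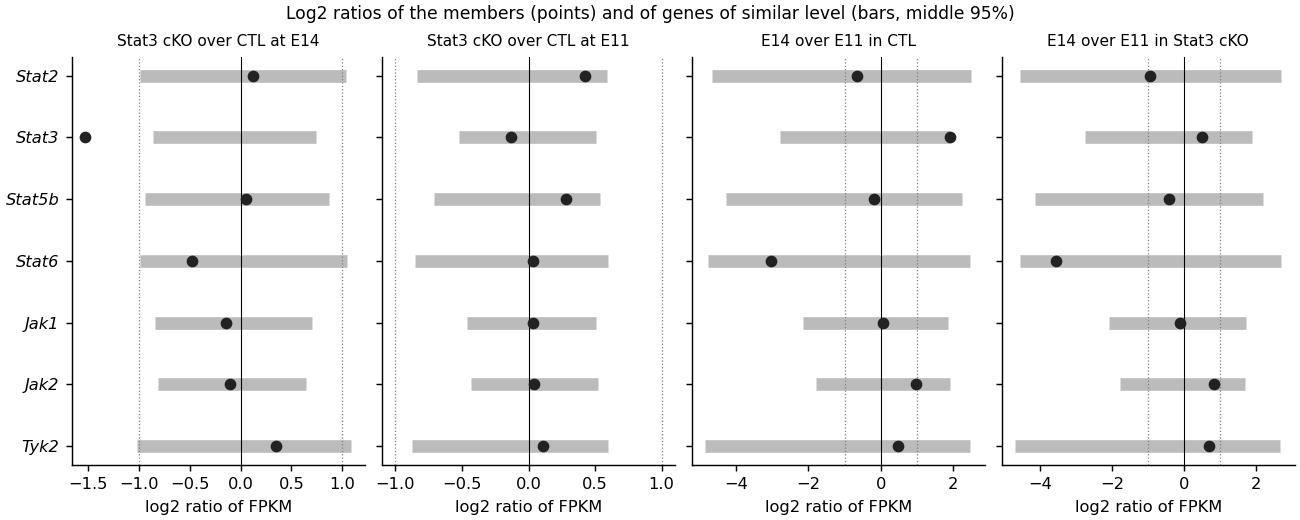
Log2 ratio of FPKM for the 7 members with a mean of at least 1 FPKM (points) in the 4 comparisons, with the middle 95% of genes of similar mean level as grey bars, a solid line at 0 and dotted lines at 2-fold. Stat3 at E14, at -1.53, is the point outside its bar in the genotype comparisons, and the bars are wider between stages than between genotypes.

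*Stat5a* and *Stat5b* are neighbours of *Stat3* on chromosome 11 and encode near-identical proteins that carry signals of growth hormone, prolactin and several interleukins. *Stat5b*, listed from 100642044 to 100711899, had 5.54 FPKM in CTL against 6.75 in *Stat3* cKO at E11, and 4.83 against 5.02 at E14. Its levels stayed within a narrow band, with genotype ratios of 1.22 at E11 and 1.04 at E14. *Stat5a*, listed from 100720664 to 100746483, had 0.696 FPKM in CTL against 0.524 in *Stat3* cKO at E11, and 0.199 against 0.295 at E14. *Stat5b* was the higher of the pair in every library, and both E14 libraries were below both E11 libraries for *Stat5a*. The *Stat5a* ratios of 0.753 at E11 and 1.48 at E14 had estimated counting errors of 0.203 and 0.324 on the log2 scale, so at E14 the log2 ratio of 0.57 was less than 2 times its counting error. How reads common to this pair were assigned is not given in the sources used here.

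The position of these genes allowed the local extent of the *Stat3* change to be described. Within 100 kb of *Stat3* the files list *Stat5b*, *Stat5a*, *Ptrf* and *Atp6v0a1*. *Atp6v0a1*, which encodes a proton pump subunit and lies 69.9 kb away, had 10.9 FPKM in CTL against 10.5 in *Stat3* cKO at E11, and 13.3 against 13.7 at E14. *Ptrf*, which encodes a coat protein of caveolae and lies 17.2 kb away, had 6.55, 5.27, 1.49 and 0.840 FPKM in the order E11 CTL, E11 *Stat3* cKO, E14 CTL, E14 *Stat3* cKO. At E14 its log2 ratio of -0.82 came closest to that of *Stat3* among the 4 neighbours, while those of *Atp6v0a1* (0.045) and *Stat5b* (0.054) were near 0. The level of *Ptrf* moved between the stages in the same direction as the mesenchymal markers, and their part in it was not tested. *Stat5a* ends 1.64 kb from the end of *Stat3* on the opposite strand, and whether counting used strand is not stated.

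**Figure D3:**
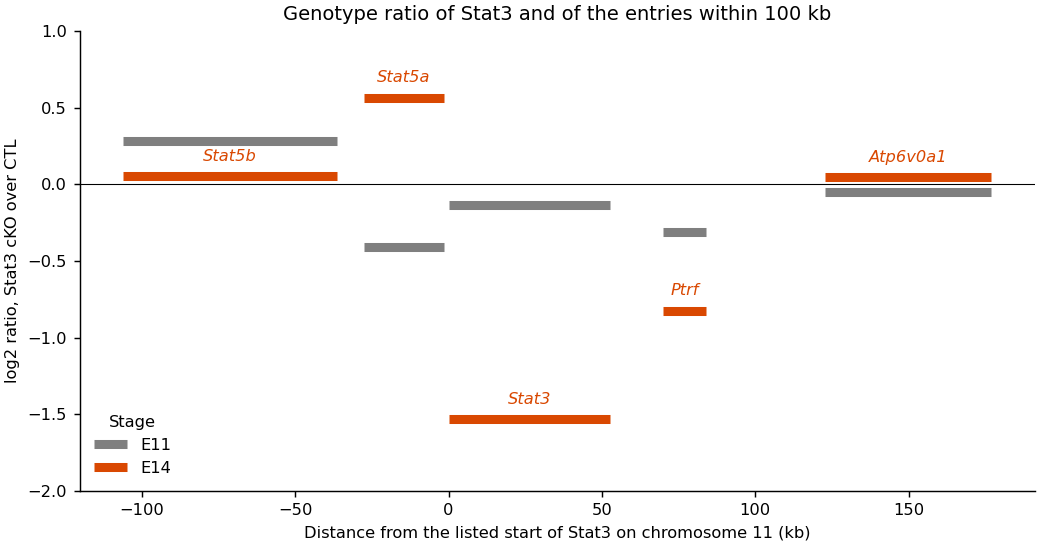
Log2 ratio, Stat3 cKO over CTL, at E11 (grey) and E14 (orange) for Stat3 and the 4 entries within 100 kb, each drawn as a bar over its listed span, in kb from the listed start of Stat3. At E14 Stat3 lies at -1.53, Ptrf at -0.82, and Stat5b and Atp6v0a1 near 0.

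*Stat6* and *Stat2* both lie on chromosome 10 and serve other receptors: STAT6 is the factor of interleukin 4 and interleukin 13, and STAT2 joins IRF9 in the complex that type I interferon activates. *Stat6*, listed from 127080041 to 127103759, had 6.00 FPKM in CTL against 6.14 in *Stat3* cKO at E11, and 0.734 against 0.525 at E14. The E11 libraries were alike and both E14 libraries were far below them. *Stat6* in CTL was 8.17-fold lower at E14 than at E11, and 11.7-fold lower in *Stat3* cKO. The corresponding log2 ratios of -3.03 and -3.55 still lay within the middle 95% of genes of similar level, which reached down to -4.76 and -4.56. At E14 the genotype ratio of *Stat6* was 0.715, a log2 ratio of -0.48 with an estimated counting error of 0.203, and at E11 it was 1.02. That small E11 log2 ratio of 0.035 turned to -0.024 once the overall median was centred on 0 and to -0.034 with upper quartile scaling. The mesenchymal markers were lower at E14 as *Stat6* was, all 7 of them in both genotypes. The 12 microglia and leukocyte markers with an entry also summed to less at E14, with 15.7 FPKM in CTL against 10.5 in *Stat3* cKO at E11, and 2.49 against 2.32 at E14, and *Aif1* was listed at 0 in E14 CTL. *P2ry12* alone of the 12 was higher at E14 than at E11 in both genotypes. Their part in the *Stat6* values was not tested. In such cultures fewer cells of a type and less RNA per cell cannot be told apart.

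*Stat2*, listed from 127707631 to 127729905, had 3.80 FPKM in CTL against 5.11 in *Stat3* cKO at E11, and 2.41 against 2.63 at E14. It was highest in E11 *Stat3* cKO, and the E14 libraries were again the low ones. At E11 its genotype ratio was 1.34, which 692 of 12430 genes exceeded, and its log2 ratio of 0.43 was inside the middle 95% of genes of similar level. At E14 the ratio was 1.09. From E11 to E14 *Stat2* was 0.635-fold in CTL and 0.514-fold in *Stat3* cKO. With each library scaled to its upper quartile, both log2 ratios passed 2-fold, at -1.03 and -1.11. *Irf9*, the partner of STAT2, had 6.75 FPKM in CTL against 6.33 in *Stat3* cKO at E11, and 3.46 against 2.93 at E14, so that it too was lower in both E14 libraries.

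Between genotypes, the ratios of the 3 kinase genes with an entry of their own ran from 0.905 to 1.27. *Jak1*, listed on chromosome 4 from 100741642 to 100937887, encodes a kinase used by gp130, interferon and common gamma chain receptors. It had 19.2 FPKM in CTL against 19.7 in *Stat3* cKO at E11, and 19.9 against 18.05 at E14. The 4 values spanned less than 2 FPKM, and the ratios in the 4 comparisons ran from 0.905 to 1.04. The log2 ratio of *Jak1* at E14 was -0.14 as deposited and 0.0093 after scaling to the upper quartile, and its log2 stage ratio in CTL was 0.054 as deposited and -0.32 after that scaling, so no direction is given for either.

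*Jak2*, listed on chromosome 19 from 29326317 to 29387570, encodes the kinase of the growth hormone, erythropoietin and prolactin receptors and also serves gp130. It had 18.4 FPKM in CTL against 19.0 in *Stat3* cKO at E11, and 36.0 against 33.5 at E14. Both E14 libraries were above both E11 libraries, and within a stage the genotypes were close. Its stage ratio was 1.95 in CTL and 1.77 in *Stat3* cKO, both just under 2-fold, and its genotype ratio was 1.03 at E11 and 0.932 at E14, both of which changed side of 1 after upper quartile scaling (log2 ratios of -0.027 and 0.052). As deposited, *Stat3* and *Jak2* both had their highest value in E14 CTL, but *Jak2* kept most of its E14 level in *Stat3* cKO. After upper quartile scaling *Jak2* was slightly higher in E14 *Stat3* cKO than in E14 CTL.

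*Tyk2*, listed on chromosome 9 from 20908511 to 20935719, encodes a kinase of the type I interferon and interleukin 12 receptors. It had 2.38 FPKM in CTL against 2.56 in *Stat3* cKO at E11, and 3.27 against 4.16 at E14. The E14 libraries were higher, and *Stat3* cKO was above CTL at both stages, with ratios of 1.08 at E11 and 1.27 at E14. The log2 ratio at E14 was 0.35 with an estimated counting error of 0.074, and 1488 of 12430 genes had a higher one. *Jak3* encodes the kinase bound to the common gamma chain of lymphocyte receptors. The entry that joins it with *Insl3* spans 74200281 to 74214476 of chromosome 8, and its level was 0.266 FPKM in CTL against 0.196 in *Stat3* cKO at E11, and 0.363 against 0.239 at E14. It was the lowest kinase entry in every library, at an estimated 30 to 60 fragments. *Il2rg*, which encodes the common gamma chain, was at 0.0457 to 0.278 FPKM.

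Between stages, 1 of the 7 members with a mean of at least 1 FPKM (*Stat3*) was at least 2-fold higher at E14 in CTL and 1 (*Stat6*) at least 2-fold lower. Of all genes 14.6% were higher and 12.5% lower by that margin. In *Stat3* cKO none was at least 2-fold higher and *Stat6* alone was lower, where 10.1% of all genes were higher and 11.7% lower. The median log2 ratio of the 7 members was 0.054 in CTL and -0.13 in *Stat3* cKO, against 0.21 and 0.058 for all genes. All 7 members lay within the middle 95% of genes of similar level in both stage comparisons. For *Stat3* in CTL the margin was small, with a log2 ratio of 1.899 against an upper bound of 1.91.

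Since FPKM is per length, the levels could be summed to give the make-up of each family among the entries described. In E11 CTL, *Stat3* made up 31.6% of the summed level of the 5 STAT genes, *Stat6* 25.6%, *Stat5b* 23.6%, *Stat2* 16.2% and *Stat5a* 2.97%. The first 3 were close to each other, and no single gene dominated. In E11 *Stat3* cKO, *Stat5b* (26.7%) and *Stat3* (26.7%) were level. In E14 CTL the share of *Stat3* was 77.1%, followed by *Stat5b* with 13.5%. In E14 *Stat3* cKO it was 53.0%, so *Stat3* was the highest of the 5 there as well, and *Stat5b* had 27.8%. The summed STAT level was 23.4 FPKM in CTL against 25.3 in *Stat3* cKO at E11, and 35.8 against 18.02 at E14. The difference between the E14 sums was about that of *Stat3* alone.

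Among the kinases, *Jak1* and *Jak2* had like shares at E11, 47.7% and 45.8% in CTL. At E14, *Jak2* had 60.4% and *Jak1* 33.5% in CTL, and 59.9% and 32.2% in *Stat3* cKO. The order at E14 was therefore *Jak2*, *Jak1*, *Tyk2* and the joined entry in both genotypes. The summed kinase level was 40.3 FPKM in CTL against 41.4 in *Stat3* cKO at E11, and 59.5 against 56.0 at E14. As deposited, it differed more between stages than between genotypes. The FPKM of all entries also summed to more at E14, with 1394050 in CTL and 1461770 in *Stat3* cKO against 948738 and 806587 at E11. The part of that difference in the kinase sums was not tested.

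**Figure D4:**
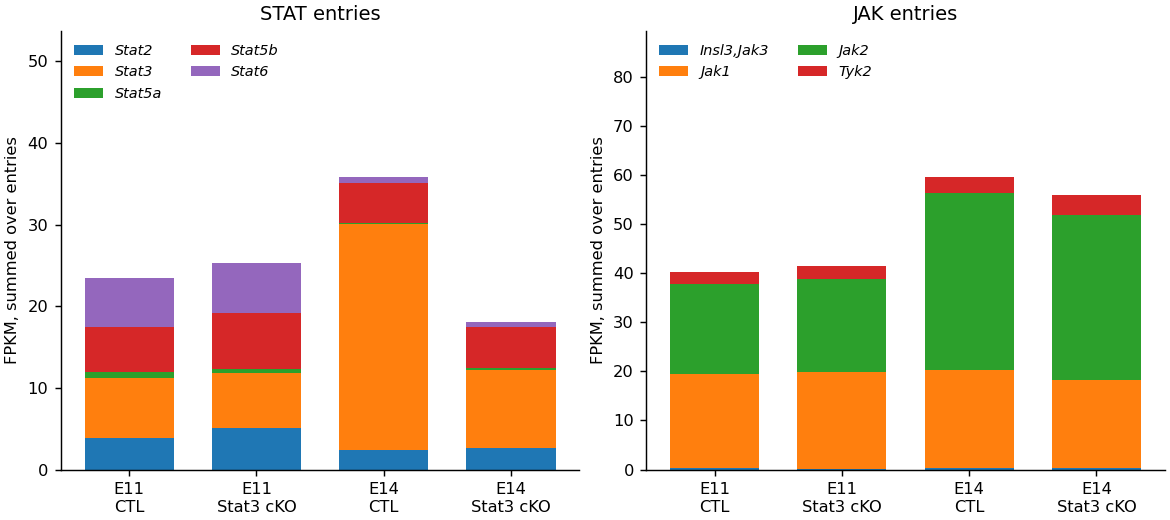
Summed FPKM of the 5 STAT genes (left) and of the 4 JAK entries (right) in each library, stacked by entry. The STAT sum is highest in E14 CTL (35.8 FPKM) through Stat3, and the JAK sum is higher in both E14 libraries through Jak2.

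Genes whose 4 values run most like those of *Stat3* were found by the root mean square difference between log2 FPKM profiles, each centred on its own mean. Among 9190 entries with a mean of at least 5 FPKM and no value of 0, the nearest was *Rhoq*, a small GTPase, with a difference of 0.069. It had 23.9 FPKM in CTL against 22.6 in *Stat3* cKO at E11, and 91.0 against 34.9 at E14. *Tbc1d1*, a GTPase-activating protein for Rab proteins, followed with 0.131, then *Timm8a1*, a mitochondrial import chaperone encoded on the X chromosome, with 0.1497. *Slc29a1*, a nucleoside transporter, was at 0.179 and *Slc25a25*, a mitochondrial carrier, at 0.193. In all 5 the genotype ratio at E14 lay between 0.384 and 0.474. Their likeness rests on 4 libraries and was selected from many entries, so it is a description.

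The other genes of the pathway were summarised by lists. Of 25 receptor chains that carry JAKs, 12 had a mean of at least 1 FPKM, and none of them differed at least 2-fold between genotypes at either stage. Among all genes few did so, 1.69% lower and 1.85% higher at E14 and 1.12% and 0.209% at E11, so a count of 0 in this list or in the 2 lists of inhibitors and partners is near that background. The medians of their log2 genotype ratios were -0.085 at E14 and 0.091 at E11, beside -0.079 and 0.059 for all genes. *Il6st*, which encodes gp130, had 44.9 FPKM in CTL against 39.4 in *Stat3* cKO at E11, and 7.58 against 7.73 at E14. *Lifr*, which encodes its partner in the LIF receptor, had 10.6, 13.4, 10.2 and 9.84 FPKM in the order E11 CTL, E11 *Stat3* cKO, E14 CTL, E14 *Stat3* cKO. In E14 CTL, where *Stat3* was highest, *Il6st* was low, whereas *Lifr* stayed between 9.84 and 13.4 FPKM. In each genotype 6 of the 12 chains were at least 2-fold lower at E14 than at E11: *Il6st*, *Ghr*, *Il11ra1*, *Lepr*, *Cntfr* and *Il13ra1*, named after their values were seen. Of all genes, 12.5% in CTL and 11.7% in *Stat3* cKO were lower by that margin. The mesenchymal markers were lower at E14 too, and their part in this was not tested.

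*Ctf1*, which encodes the gp130 ligand cardiotrophin 1, had 2.90 FPKM in CTL against 2.82 in *Stat3* cKO at E11, and 2.75 against 2.78 at E14. Of 18 inhibitors, 16 passed the minimum, and none reached 2-fold between genotypes. The median of their log2 ratios was -0.17 at E14, with 12 of 16 below 0, and 0.064 at E11, with 13 of 16 above 0. The medians of all genes lay on the same sides, at -0.079 and 0.059. *Socs3*, the feedback inhibitor of gp130, had 4.15 FPKM in CTL against 3.82 in *Stat3* cKO at E11, and 2.78 against 2.34 at E14. Its highest levels were at E11 and not in E14 CTL, where *Stat3* was highest. Among 12 partners and coactivators, 11 were measured above the minimum, none differed at least 2-fold between genotypes, and the medians were -0.14 at E14 and -0.015 at E11. Upper quartile scaling moves every log2 genotype ratio by 0.15 at E14 and by -0.069 at E11, which turns the sign of the E14 medians of the receptors and partners and of the E11 median of the inhibitors.

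Genes known from other systems as targets of STAT factors formed the list with genotype ratios past 2-fold at both stages. The list was chosen with earlier results of these data known, so its counts beside all genes are a description. Of 24 genes 20 passed the minimum, and at E14 6 of these were lower in *Stat3* cKO by 2-fold or more and none was higher by that margin, against 1.69% and 1.85% of all genes. The median log2 ratio was -0.396, with 17 of 20 below 0, and that of all genes was -0.079. The largest drop was that of *Ccnd1*, which encodes the G1 cyclin D1, with 210 FPKM in E14 CTL against 34.2 in E14 *Stat3* cKO. At E11 *Ccnd1* was at 101 and 120 FPKM, so E14 *Stat3* cKO was the low library. The AP-1 genes *Fos* and *Junb* were highest in E14 CTL, *Fos* with 6.74 FPKM against 2.19 in E14 *Stat3* cKO, and *Junb* with 4.96 and 2.14. The E11 levels of *Fos* were 0.952 (CTL) and 1.17 FPKM (*Stat3* cKO), and those of *Junb* 2.26 and 2.03 FPKM. *Timp1*, a metalloproteinase inhibitor encoded on the X chromosome, had 2.87 and 0.787 FPKM, *Cebpd*, a C/EBP transcription factor, 2.09 and 0.904, and *Icam1*, a cell adhesion receptor, 0.468 and 0.185. The neuron markers (998 against 852 FPKM), the mesenchymal markers (15.9 against 10.4) and the sex-linked genes also differed between these libraries. Of the mesenchymal markers, *Pdgfrb* (0.625 against 1.58) and *Col1a1* (0.513 against 0.544) went the other way, being higher in E14 *Stat3* cKO. The progenitor and radial glia markers summed to 7468 FPKM in E14 CTL against 8113 in E14 *Stat3* cKO, with 7 of 8 higher in the latter (*Hes5* at 124 against 294) and *Vim* lower. The part of these markers in the target values was not tested.

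At E11, 3 of the 20 were lower in *Stat3* cKO by 2-fold or more and none was higher by that margin, against 1.12% and 0.209% of all genes. The median was -0.26, with 15 of 20 below 0, and that of all genes was 0.059. *Cebpb*, another C/EBP factor, had 17.1 FPKM in E11 CTL and 3.02 in E11 *Stat3* cKO, the largest gap of the list at that stage. *Icam1* had 2.69 and 1.20 FPKM, and *Lgals3bp*, a secreted glycoprotein, 2.90 and 1.45. *Stat3* itself had a ratio of 0.911 at E11, a value that counts *Stat3* RNA of any form and does not show how much was intact. The microglia and leukocyte markers summed to 15.7 FPKM in E11 CTL and 10.5 in E11 *Stat3* cKO, with all 12 of them lower in the latter. The mesenchymal markers summed to 1326 and 1171, although *Lum*, *Col1a1* and *Pdgfrb* among them were higher in E11 *Stat3* cKO. The part of these markers in the E11 target values was not tested, and nothing is claimed as particular to the list.

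**Figure D5:**
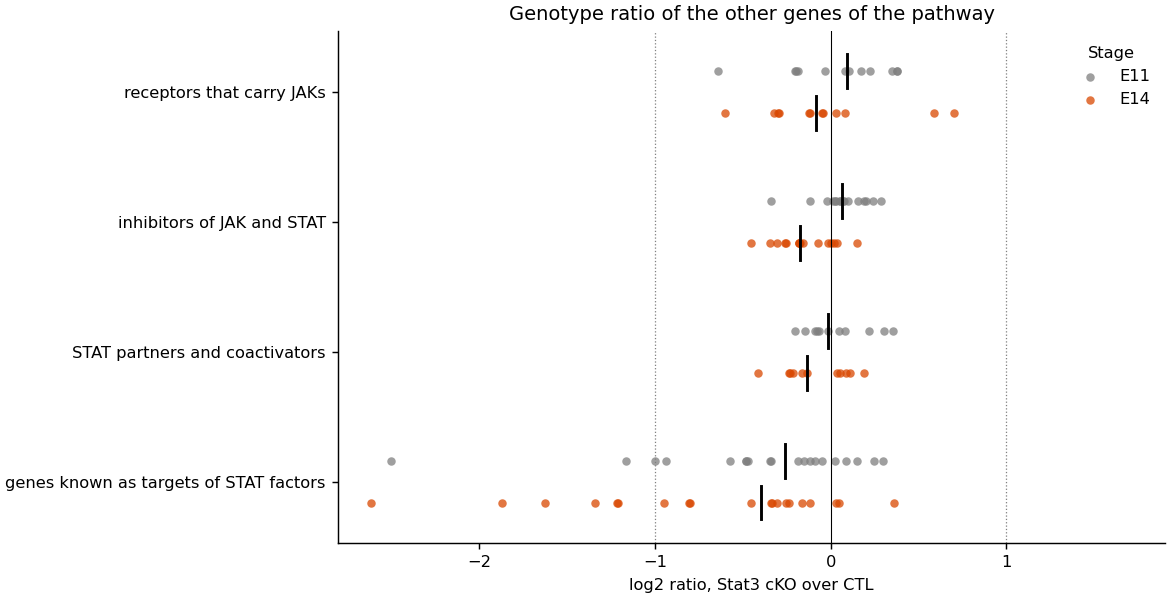
Log2 ratio, Stat3 cKO over CTL, at E11 (grey) and E14 (orange) for the genes of 4 pathway lists with a mean of at least 1 FPKM, with black ticks at the medians and dotted lines at 2-fold. Receptors, inhibitors and partners lie within 2-fold at both stages, whereas 6 of the 20 known targets lie beyond 2-fold on the lower side at E14. The lists were chosen with earlier results of these data known.

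The promoters of the members were searched for the letters to which STAT dimers are known to bind. RefSeq windows of GRCm38.p6, 250 bases before to 50 after each start, were found for all 9 genes named by the rule (11 windows). TTCNNNGAA, which reads the same on both strands, was in none of the 11, and 8.30% of all 32851 windows held it. TTC and GAA with 4 bases of any kind between them, the spacing known for STAT6 and also its own reverse complement, were in 1 of the 11, that of *Stat2*, and in 6.95% of all windows. Its surroundings are shown for the single match, which begins 210 bases before the start of *Stat2*, with the motif in capitals, on the plus strand at chr10:128270268-128270317:

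Stat2: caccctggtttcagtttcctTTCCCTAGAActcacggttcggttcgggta

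The match is a description of letters in this window. No binding was measured in the files analysed here.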

How the data were processed

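RNA-seq was described for 4 libraries, 1 per group. The authors sequenced on an Illumina HiSeq instrument, checked reads by FastQC, used the TopHat and Cufflinks workflow and deposited 1 FPKM value per entry and library. The submitters' processing notes also name Bowtie 0.12.2 and the builds mm8 and mm9, without a role, so coordinates of entries are given as listed. The annotation and any scaling between libraries are not given in the sources used here.

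Values were used as deposited. Ratios were plain ratios without a pseudocount. A gene entered if it averaged 1 FPKM or more (12449 of 21091 entries) and had a value above 0 in both libraries. Genes of similar level had a mean within 2-fold. Fragments were estimated from the first peak of FPKM times transcript length (GENCODE M21, longest transcript, 1500 to 2500 bases), taken as 1 fragment, and from a member's transcript length. The counting error follows from these numbers and covers counting alone, not variation between cultures. The steps were tested on simulated data.

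The members and lists were chosen with earlier results of these data known. Named singly were all members, entries within 100 kb of *Stat3*, the 5 entries most like it, list genes past 2-fold between genotypes, *Il6st*, *Lifr*, *Socs3* and *Irf9*. *Il2rg*, *Aif1*, *P2ry12*, *Hes5*, *Vim*, *Pdgfrb*, *Col1a1*, *Lum*, *Ddx3y*, *Ctf1* and the receptors that were lower at E14 were added after their values were seen. The result of 1 gene that this rule takes in is not reported here. Alternatives were pseudocounts of 0.1 and 1 FPKM, 2 scalings, other thresholds and other minimums. Python 3.11.15, numpy 2.4.6, pandas 2.3.3 and matplotlib 3.10.9 were used.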

Additional observations from a re-analysis of the deposited data

Results flagged for a closer look

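The direction of the genotype difference was opposite at the 2 stages for 4 entries, and with 1 library per group this difference was not tested. For *Stat5a* the log2 genotype ratio (*Stat3* cKO over CTL) was -0.41 at E11 and 0.57 at E14, a difference of 0.975 at a level below 1 FPKM. For *Stat6* it was 0.035 and -0.48, a difference of -0.52. For *Jak1* it was 0.035 and -0.14, a difference of -0.18, and for *Jak2* 0.042 and -0.101, a difference of -0.14. The directions for *Stat6*, *Jak1* and *Jak2* depended on the scaling. With the overall median centred on 0, *Stat6* (-0.024), *Jak1* (-0.023) and *Jak2* (-0.017) were below 0 at E11 as well as at E14. With upper quartile scaling *Stat6* was again below 0 at both stages, with -0.034 at E11. The same scaling gave *Jak1* and *Jak2* log2 ratios below 0 at E11 (-0.033 and -0.027) and above 0 at E14 (0.0093 and 0.052), the reverse of the values as deposited.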

How the results depend on the processing

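No replicate could be left out because each group held 1 library, and no paired analysis was made. With no spread to compare with, a ratio was taken as kept when it stayed on its side of 2-fold. Setting the median of all genes to 0 moved the log2 ratios by 0.079 (genotype, E14), -0.059 (genotype, E11), -0.21 (stage, CTL) and -0.058 (stage, *Stat3* cKO), and scaling to the upper quartile by 0.15, -0.069, -0.37 and -0.15. Of 144 recomputed log2 ratios of the 8 members and the joined entry, 140 stayed on their side of 2-fold and 10 changed sign, each at most 0.14 in size as deposited. The log2 ratio of *Stat3* at E14 passed 2-fold under the pseudocounts and both scalings. The number of members past 2-fold was 0 in place of 1 for genotype at E14 with a threshold of 3. For stage in CTL it was 4 in place of 2 with a threshold of 1.5, 3 with upper quartile scaling (*Stat2* added), 3 with no minimum (*Stat5a* added), and 1 with a minimum mean of 5 FPKM, which 4 members pass. For stage in *Stat3* cKO it was 4 in place of 1 with a threshold of 1.5, 2 with either scaling, where *Stat2* joined *Stat6*, and 0 with the minimum of 5 FPKM. Levels of *Stat5a* and of the joined *Jak3* entry rest on few fragments, and with 1 FPKM added the log2 stage ratio of *Stat5a* in CTL was -0.50 in place of -1.81.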
